A study of Mus musculus with 8 samples.

Results

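The subject is a set of 9 genes that mark ON and OFF bipolar cells of the mouse retina: Grm6, Trpm1, Nyx, Gng13, Rgs11, Prkca, Pcp2, Cabp5 and Vsx1. A gene was included when a probe set carried its symbol and no other in the platform annotation, which gave 18 probe sets for 8 of the 9 genes, out of 45037 probe sets in the series. Grm6, the glutamate receptor at the head of the ON pathway, had no probe set under this rule and was not analysed here. RNA of 8 retinas had been hybridised to 1 Affymetrix array each. The injected group was 4 retinas whose label names an injection and a compound-based treatment without giving the compound, dose, route or interval. The control group was 4 retinas taken fresh, at a labelled time of 0 d. Neither group has a stated strain, genotype, age or sex, no sham injection was part of the comparison, and nothing says that replicate retinas are from separate animals, so p-values measure the spread between these arrays, which may be technical. Injection, compound, elapsed time and handling of the tissue cannot be told apart.

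Bipolar cells carry the signal of rods and cones to the inner retina. In ON bipolar cells the receptor mGluR6, held in place by dendritic scaffold proteins, senses the glutamate that photoreceptors release in the dark, and its Go protein then keeps the cation channel TRPM1 shut; when light lowers glutamate, the G protein is switched off by RGS proteins, TRPM1 opens and the cell depolarises. OFF bipolar cells use ionotropic glutamate receptors and keep the sign of the photoreceptor signal. Loss of the mGluR6 cascade causes stationary night blindness in mice and in people.

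None of the bipolar genes passed the test in injected against control retina. By limma with Benjamini-Hochberg adjustment over 27022 tested probe sets, 0 of the 14 tested bipolar probe sets had an adjusted p under 0.05, as did 0 of all probe sets (0%), whose smallest adjusted p was 0.102. Without injected replicate 4, limma called 34 probe sets in all, and with array weights 8, none of them the probe set read for a bipolar gene. The lowest values relative to control, in log2 units, were those of Trpm1 (-1.19 ± 0.78), Pcp2 (-0.71 ± 0.33) and Vsx1 (-0.61 ± 0.24), and the highest were those of Nyx (0.35 ± 0.29) and Rgs11 (0.27 ± 0.32), all with SE and n = 4 arrays a group. For each gene the brightest of its probe sets was used. On that reading 6 of 8 genes were below control, where 52.4% of all tested probe sets were, and the median difference was -0.28, beside -0.02 over all tested probe sets. An unadjusted p under 0.05 was reached by 1 of 8 genes, Vsx1, beside 6.99% of all probe sets. Counted over probe sets the number was 4 of 14, beside 6.99% of all probe sets in either direction. All 4 were lower, as were 3.33% of all probe sets at that p, a direction not set before the count. These 4 belong to Vsx1, Pcp2, Cabp5 and Trpm1, so probe sets of 3 genes reached it that were not the brightest of their gene. The Trpm1 probe set, 1440241_at, had log2 means of 8.12 in injected and 9.85 in control retinas. Only its control mean lay above the floor for testing, about 345 units, so its place among the tested probe sets rests on the controls.

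The upstream sequences of 2 genes are shown: Trpm1, which had the lowest value relative to control, at both of its starts in the table, and Vsx1, the gene whose groups did not overlap. Probe sequences were not used here, so no probe set was assigned to a start or transcript, and whether these windows bear on the values was not tested. They are RefSeq sequences of build GRCm38.p6, the 250 bases before an annotated start, 5′ to 3′ on the strand of the gene. Capitals mark matches, on either strand, to CACGTG and CATGTG (E-box letters of the kind bound by basic helix-loop-helix factors such as MITF, the regulator of pigment cell genes), to TAATCC (the core bound by the photoreceptor and bipolar factors CRX and OTX2) and to TAATTA (a homeobox core of the kind bound by VSX proteins). These 4 motifs do not overlap in the windows shown.
Trpm1 upstream start, chr7:64153585-64153834, plus strand: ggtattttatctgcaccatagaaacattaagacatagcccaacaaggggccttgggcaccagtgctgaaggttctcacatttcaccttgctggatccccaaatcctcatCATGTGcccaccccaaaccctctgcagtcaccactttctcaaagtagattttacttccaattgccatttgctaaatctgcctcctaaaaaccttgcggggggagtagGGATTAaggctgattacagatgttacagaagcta
Trpm1 downstream start, chr7:64185209-64185458, plus strand: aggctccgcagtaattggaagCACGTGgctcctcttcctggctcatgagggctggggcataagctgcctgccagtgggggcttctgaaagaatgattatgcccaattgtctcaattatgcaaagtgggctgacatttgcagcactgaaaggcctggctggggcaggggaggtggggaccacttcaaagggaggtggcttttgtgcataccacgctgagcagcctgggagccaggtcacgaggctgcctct
Vsx1, chr2:150689138-150689387, minus strand: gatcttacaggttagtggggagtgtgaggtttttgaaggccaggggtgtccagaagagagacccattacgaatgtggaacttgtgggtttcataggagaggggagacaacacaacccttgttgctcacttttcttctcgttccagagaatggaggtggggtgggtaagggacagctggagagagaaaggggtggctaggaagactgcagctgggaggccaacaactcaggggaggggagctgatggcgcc

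The upstream window of Trpm1 held CATGTG with its first base 141 bases before the start and TAATCC, on the opposite strand, at 34 bases. The downstream window held CACGTG at 229 bases. Of 32851 mouse windows of this length, 12.3% held CATGTG, 6.25% TAATCC, 6.02% CACGTG and 4.84% TAATTA. Windows were found for 8 of the 9 genes, 13 in all, Rgs11 being the gene with none. TAATCC was in the windows of 2 genes, Trpm1 and Cabp5, and Cabp5 held it at 160 and 41 bases. CATGTG was in those of Trpm1 and Pcp2, CACGTG in that of Trpm1 alone and TAATTA in 1 window of Pcp2. The Vsx1 window held none of them. A match of letters is not evidence that a factor binds there.

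Values by array are quantile-normalised intensities in array units, and probe sets were tested when their mean lay above a floor of about 345 units; differences are injected minus control means of log2(intensity + 16). Signal of different probe sets was not read as relative abundance, since each binds its transcript with its own strength. It served to pick the brightest probe set of a gene and to sum a list on each array. In such a sum the brightest probe sets weigh most. In whole retina, fewer bipolar cells and less RNA per bipolar cell cannot be told apart.

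**Figure D1:**
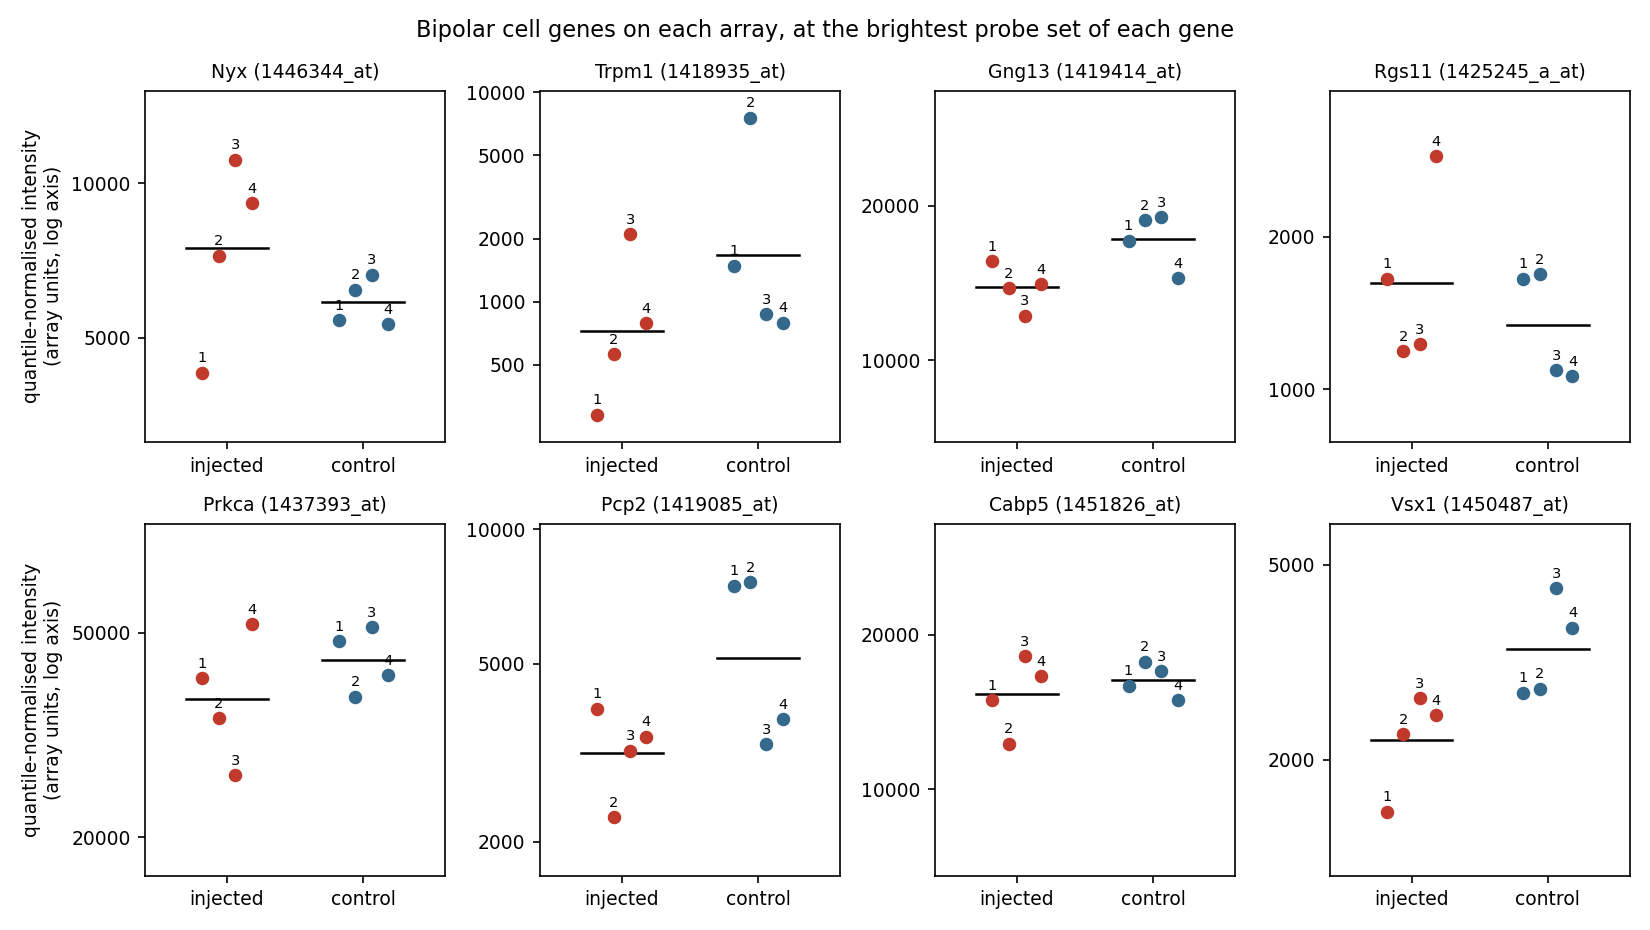
Quantile-normalised intensity (array units, log axis) of 8 bipolar cell genes at their brightest probe set, for 4 injected (red) and 4 control (blue) arrays; numbers are replicates and black lines are group means of log2 values, converted back. Vsx1 is the gene whose groups did not overlap, and Trpm1 was highest on control replicate 2, at 7555 units.

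Nyx encodes nyctalopin, the leucine-rich repeat protein that anchors TRPM1 at the dendrite tips of ON bipolar cells. It had 4270, 7220, 11101 and 9141 units on injected arrays 1 to 4, against 5410, 6194, 6626 and 5316 on control arrays 1 to 4. Injected replicate 1 was the lowest of all 8 arrays and the other 3 injected arrays were above every control, so the groups overlapped through that array. The difference was 0.35 ± 0.29 log2 units (SE; adjusted p = 0.772), or 0.62 without injected replicate 1 and 0.16 without injected replicate 3. Injected values spread more, with an SD of 0.59 log2 units, than control values, with an SD of 0.15 (n = 4 each). Only 1 probe set represented the gene.

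Trpm1 encodes the cation channel that mGluR6 signalling closes. At its brightest probe set, 1418935_at, it had 289, 563, 2097 and 791 units on injected arrays 1 to 4, against 1490, 7555, 871 and 794 on control arrays 1 to 4. Control replicate 2 was by far the highest, and 3 of the 4 injected arrays lay below all controls. For injected replicate 4 the margin was slight, at 791 units against 794 on control replicate 4. The difference was -1.19 ± 0.78 (SE; adjusted p = 0.745), and without control replicate 2 it was -0.47 and without injected replicate 1 it was -0.76.

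The other 3 Trpm1 probe sets were also lower on average. Probe set 1440241_at had 665, 329, 31 and 536 units on injected arrays 1 to 4, against 655, 1537, 734 and 925 on control arrays 1 to 4, with a difference of -1.73 ± 0.76 (SE; adjusted p = 0.712). Here injected replicate 3 was the lowest array, whereas at 1418935_at it was the highest injected array. Without injected replicate 3 its difference was -0.89, and without control replicate 2 it was -1.48. The remaining probe sets, 1437445_at and 1437531_at, lay below the floor and were not tested. They had differences of -1.27 and -0.79, and of -0.04 and -0.25 without control replicate 2. Probe set 1437445_at read 100 to 438 units on injected arrays, against 6597 units on control replicate 2 and 96 to 484 on the other 3 control arrays.

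Trpm1 was first described as melastatin, a gene of melanocytes, and it is active in pigmented cells as well as in bipolar cells. Control replicate 2 was also the array with the most signal of pigment cell genes. The melanin synthesis genes Dct and Tyrp1 read 2126 to 7872 and 703 to 13392 units on injected arrays, and the melanosome matrix gene Pmel read 877 to 1842. On control replicate 2 they read 82832, 96530 and 21686 units. On the other 3 control arrays Dct ran from 2537 to 26758 units, Tyrp1 from 2032 to 20245 and Pmel from 534 to 2438. The summed signal of all 6 measured genes of a pigment cell list was 16928, 19684, 20640 and 5675 units on injected arrays 1 to 4. On control arrays 1 to 4 it was 51869, 207707, 7537 and 10877 units. On that sum injected replicates 1 to 3 lay above control replicates 3 and 4. At Trpm1 probe set 1418935_at injected replicates 1 and 2 lay below those controls and injected replicate 3 above them. No gene of the list was at 0 on any array. Rpe65, the visual cycle isomerase of the pigment epithelium, read 744, 84, 507 and 103 units on injected arrays 1 to 4, against 1818, 5914, 1408 and 1324 on control arrays 1 to 4. All injected arrays lay below all controls, also with control replicate 2 set aside, and the difference was -3.02 ± 0.73 (SE; adjusted p = 0.513). The log2 means of Rpe65 were 8.04 in injected and 11.06 in control retinas. Only the control mean lay above the floor, so the place of Rpe65 among the tested probe sets rests on the controls. Tyr and Best1 did not stand out on control replicate 2, at 698 and 47 units. The part of pigment cells in the Trpm1 values was not tested. Without control replicate 2 the difference was -0.47 at 1418935_at and -1.48 at 1440241_at, the tested probe sets. It was -0.04 at 1437445_at and -0.25 at 1437531_at, below the floor.

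**Figure D2:**
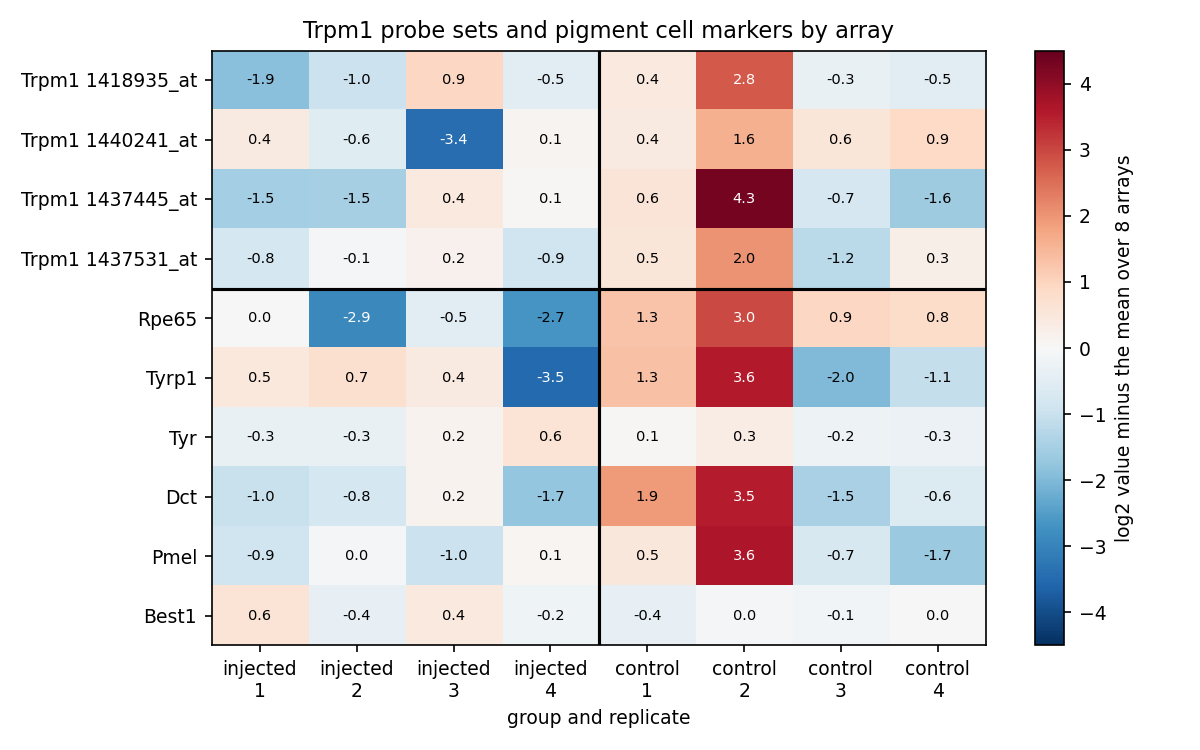
Log2 values of the 4 Trpm1 probe sets and 6 pigment cell markers on each array, each minus its mean over the 8 arrays (colour scale in log2 units; injected arrays left of the vertical line, control arrays right of it). All 4 Trpm1 probe sets were highest on control replicate 2, the array on which Dct, Tyrp1, Pmel and Rpe65 were also highest.

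Gng13 encodes the G protein gamma subunit that pairs with the beta subunit Gnb3 in ON bipolar cells. Its brightest probe set had 15593, 13814, 12212 and 14060 units on injected arrays 1 to 4, against 17100, 18743, 19006 and 14460 on control arrays 1 to 4. All injected arrays but replicate 1 lay below every control, and replicate 1 lay above control replicate 4, so the groups overlapped. The difference was -0.31 ± 0.18 (SE; adjusted p = 0.741). The second probe set, a dim one, ran from 195 to 852 units on injected arrays against 338 to 513 on control arrays, with a difference of -0.09 ± 0.47. Single omissions turned its sign, from -0.44 without injected replicate 3 to 0.23 without injected replicate 2.

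Rgs11 encodes the regulator that, with Rgs7, speeds the shut-off of Go in ON bipolar dendrites. It had 1653, 1188, 1226 and 2882 units on injected arrays 1 to 4, against 1652, 1689, 1091 and 1061 on control arrays 1 to 4. The groups overlapped over most of their range, and injected replicate 4 alone stood above all controls. The difference was 0.27 ± 0.32 (SE; adjusted p = 0.815), and without that array it was -5.1e-04. Over the other single omissions it ran from 0.16 to 0.42.

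Prkca, protein kinase C alpha, is the standard marker of rod bipolar cells. Its brightest probe set had 40735, 34079, 26372 and 51957 units on injected arrays 1 to 4, against 48095, 37519, 51228 and 41319 on control arrays 1 to 4. The highest and the lowest array were both injected. The difference was -0.25 ± 0.24 (SE; adjusted p = 0.783), or -0.08 without injected replicate 3 and -0.41 without injected replicate 4. Probe set 1450945_at had the opposite sign, at 0.39 ± 0.24 (SE; adjusted p = 0.744), and 0.25 without injected replicate 3. Probe set 1427562_a_at, which lay below the floor, was at 0.33, but at -0.14 without injected replicate 3 and -0.13 without control replicate 2.

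Pcp2 encodes a small GoLoco protein that binds Go and Gi subunits and is found in ON bipolar cells and in Purkinje cells of the cerebellum. At its brightest probe set it had 3972, 2265, 3195 and 3434 units on injected arrays 1 to 4, against 7489, 7618, 3304 and 3754 on control arrays 1 to 4. Control arrays fell into a high pair, replicates 1 and 2, and a pair, replicates 3 and 4, that lay within the range of the injected arrays. The difference was -0.71 ± 0.33 (SE; adjusted p = 0.725).

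All 3 Pcp2 probe sets were lower on average. Probe set 1419084_a_at had 871, 581, 408 and 821 units on injected arrays 1 to 4, against 1718, 1724, 691 and 1059 on control arrays 1 to 4, with the same high pair of controls. Its difference was -0.90 ± 0.35 (SE; adjusted p = 0.709). Probe set 1424944_at ran from 472 to 1022 units on injected arrays against 877 to 1050 on control arrays, with a difference of -0.46 ± 0.25 (adjusted p = 0.732), and there control replicates 1 and 2 did not stand apart. Without injected replicate 2 the difference of 1424944_at was -0.27. Across all 18 alternative settings the Pcp2 difference stayed below 0, from -0.93 to -0.46. The value of -0.46 is that of 1424944_at, used in the setting that reads the probe set with the smallest spread. At the brightest probe set the value nearest to 0 was -0.52, without control replicate 2.

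Cabp5 encodes a calcium-binding protein of rod bipolar cells and some cone bipolar types. At its brightest probe set it had 14916, 12267, 18158 and 16610 units on injected arrays 1 to 4, against 15899, 17692, 16988 and 14888 on control arrays 1 to 4. The injected arrays covered the whole range of the controls. The difference was -0.09 ± 0.18 (SE; adjusted p = 0.893), the nearest to 0 of the 8 genes, and it was 0.015 without injected replicate 2. The second probe set, 1421780_a_at, read otherwise. It had 965, 954, 1336 and 1334 units on injected arrays 1 to 4, against 1869, 1726, 1251 and 1936 on control arrays 1 to 4. Only control replicate 3 lay within the injected range, and the difference was -0.56 ± 0.22 (SE; adjusted p = 0.709).

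Vsx1 encodes a homeobox factor of OFF cone bipolar cells and of an ON cone bipolar type. It had 1569, 2259, 2670 and 2468 units on injected arrays 1 to 4, against 2741, 2795, 4479 and 3720 on control arrays 1 to 4. All injected arrays lay below all controls, though the highest injected and the lowest control value were close, at 2670 and 2741 units. Vsx1 was the only 1 of 8 genes whose groups did not overlap, beside 2.6% of all tested probe sets with all injected arrays lower and 5.07% in either direction. The log2 value averaged 11.11 ± 0.34 in injected and 11.72 ± 0.34 in control retinas (SD, n = 4 each). Injected minus control was thus -0.61 ± 0.24 (SE; adjusted p = 0.709) or 0.656 times control. Over the 18 alternative settings the difference ran from -0.82 to -0.45. The second Vsx1 probe set lay below the floor and ran from 21 to 270 units on injected arrays against 40 to 129 on control arrays.

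**Figure D3:**
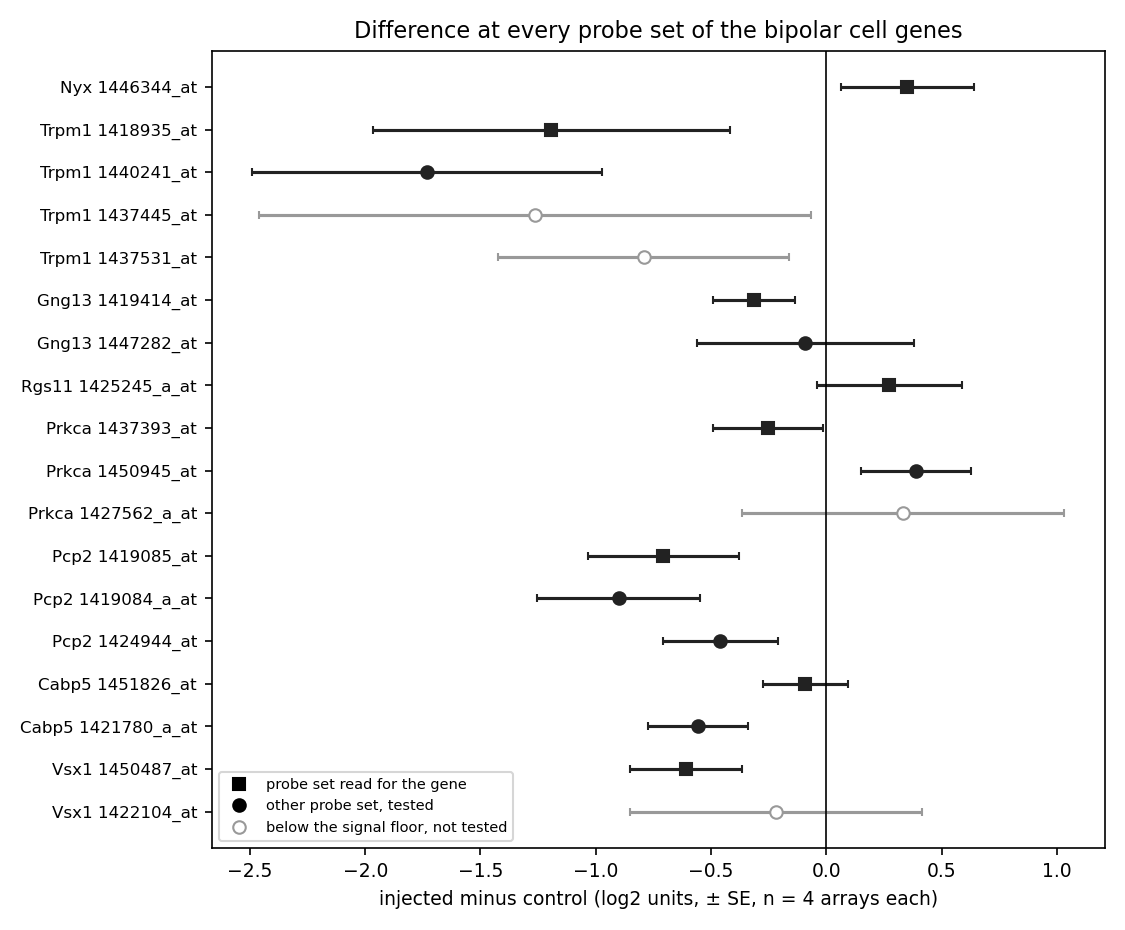
Difference between injected and control means (log2 units, bars ± SE, n = 4 arrays each) for all 18 probe sets of the 8 measured genes; squares are the probe sets read for a gene, filled circles other tested probe sets and open circles probe sets below the floor. The Trpm1 and Pcp2 probe sets all lie below 0, while those of Prkca lie on both sides.

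The 8 genes did not follow a common profile over the arrays. The correlation of each gene with the mean of the other 7, each scaled over the 8 arrays, ran from -0.09 for Nyx to 0.65 for Cabp5; the arrays share their scaling, and these values are descriptions. Injected replicates 1, 2 and 3 were the lowest array for 3, 2 and 2 genes, and control replicate 4 for 1. The highest arrays were injected replicates 3 and 4 and control replicates 2 and 3, for 2 genes each. Injected replicate 3 had the lowest array weight in limma, 0.191, against 0.646 to 1.83 on the other 7 arrays. The 5 tested genes most like the mean profile of the 8, by Pearson correlation over 8 arrays, were Plpp2 (0.948), Adgrl1 (0.939), Nedd8 (0.936), Tgfb2 (0.935) and Pde1a (0.929), picked as the highest of all named probe sets.

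Other genes of bipolar cells and of the mGluR6 cascade were read from 4 further lists. They include Elfn1, a rod synapse protein, which is counted below among the higher genes. Of 35 listed genes, 30 had a probe set and 28 were tested: 19 were lower and 9 higher in injected retina, with a median difference of -0.11. An unadjusted p under 0.05 was reached by 1 lower and 1 higher of the 28 genes, beside 3.33% lower and 3.66% higher of all tested probe sets at that p, a share close to the background, and 0 had an adjusted p under 0.05.

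Of the mGluR6 cascade, 7 of 8 further genes were measured, 4 lower and 3 higher, with a median of -0.14. Rgs9bp, the membrane anchor of RGS proteins in photoreceptors and ON bipolar cells, had 14797, 12702, 8986 and 19911 units on injected arrays 1 to 4, against 19329, 17758, 25143 and 25724 on control arrays 1 to 4. Injected replicate 4 alone lay among the controls, and the difference was -0.68 ± 0.27 (SE; adjusted p = 0.709). Gnao1, the Go alpha subunit itself, differed by -0.42 ± 0.28, and Elfn1, a rod synapse protein that binds mGluR6, by 0.66 ± 0.37 with injected replicate 3 at 5606 units against 1320 to 2168 on control arrays. Neither passed (adjusted p = 0.745 for Gnao1 and 0.739 for Elfn1).

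The 5 measured genes of a further rod bipolar list were all lower by small amounts, with a median of -0.15. The GABA receptor subunit Gabrr1 differed by -0.44 ± 0.27 (adjusted p = 0.744), the carbonic anhydrase-related gene Car8 by -0.22 ± 0.24 and the homeobox gene Sebox by -0.15 ± 0.28. A second probe set of Car8 was at 0.07 and the third at -0.18, and a second probe set of Sebox was at 0.07. The summed signal of the list was 31503 to 54214 units on injected arrays, against 43525 to 49812 on control arrays, so injected arrays lay on both sides of the controls.

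Cone bipolar genes had a median of 0.03 over 7 tested, with 3 lower and 4 higher. Grik1, a kainate receptor subunit through which OFF bipolar cells receive glutamate, had 4026, 3757, 4045 and 2942 units on injected arrays 1 to 4, against 2905, 1725, 3346 and 2018 on control arrays 1 to 4. Only injected replicate 4 lay within the control range, and the difference was 0.60 ± 0.25 (SE; adjusted p = 0.712); a second Grik1 probe set was at 0.40 ± 0.21. The synaptotagmin gene Syt2 differed by 0.43 ± 0.34, with other probe sets at 0.02 and -0.20, and the neuropeptide gene Cck by -0.50 ± 0.46. Grik1 stood above control and Vsx1, also a gene of OFF bipolar cells, below it, and neither passed.

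Transcription factors of bipolar cells had a median of -0.10 over 9 tested genes, 7 lower and 2 higher. Irx5, needed by some cone bipolar types, differed by -0.39 ± 0.24 (adjusted p = 0.744), Otx2 by -0.28 ± 0.24 and Prdm8, needed for bipolar cell formation, by 0.22 ± 0.19.

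Markers of other retinal cells give the setting of these values. Cone markers were lower in 7 of 7 tested genes, with a median of -0.77, and 4 of them were lower on all injected arrays than on all controls, beside 2.6% of all tested probe sets. Microglia markers were higher in 6 of 6 tested genes, with a median of 0.86, and 4 of them were higher on all injected arrays, beside 2.47% of all. The microglia gene Aif1, below the floor and not tested, went the other way at -1.17. It read 9 to 121 units on injected arrays against 11 to 292 on control arrays. Of 3 tested horizontal cell markers, with a median of -0.61, the groups of all 3 did not overlap, beside 5.07% of all tested probe sets in either direction. They differed in sign: Lhx1 (-1.20) and Calb1 (-0.61) were lower and Onecut2 (1.05) higher. Onecut1, below the floor and not tested, was at -0.71 with groups that overlapped. It read 30 to 469 units on injected arrays against 73 to 814 on control arrays. Pigment cell markers had a median of -0.93 over 5 genes, among them Rpe65, whose mean lay above the floor only in controls. Lens markers had a median of 2.46 over 3. The lens value depends on the floor. Crygd and Crybb2 had log2 means above it in injected retinas, at 9.90 and 11.16, but below it in controls, at 7.44 and 8.07. The third, Lim2, differed by 0.45. The lens genes Mip, Bfsp1 and Bfsp2, below the floor and not tested, had smaller differences than 2.46, at 0.74, 1.68 and 0.37. The summed lens signal was 31426 units on injected replicate 2 and 1944 to 4893 on the other injected arrays, against 1141 to 3019 on control arrays. No gene of these lists had an adjusted p under 0.05. Rod markers had a median of -0.31 over 6 genes, ganglion cell markers -0.28 over 6 and Müller glia markers -0.25 over 7, while amacrine markers had 0.10 over 8. The highest amacrine value, 0.92 for Th, depends on the floor. Its log2 mean lay above the floor in injected retinas, at 9.01, but below it in controls, at 8.09. All 6 ganglion cell genes were lower, and 5 of the 6 rod genes. All injected arrays lay below all controls for 2 ganglion cell genes and 1 rod gene, beside 2.6% of all tested probe sets. The groups overlapped for all Müller glia and amacrine genes. The bipolar median of -0.28 lay among those of rods, ganglion cells and Müller glia. The photoreceptor arrestin gene Sag, which marks the tissue as retina, read 50085 to 90954 units on injected arrays and 73918 to 89067 on control arrays. The part of changed shares of other cells in the bipolar values was not tested.

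**Figure D4:**
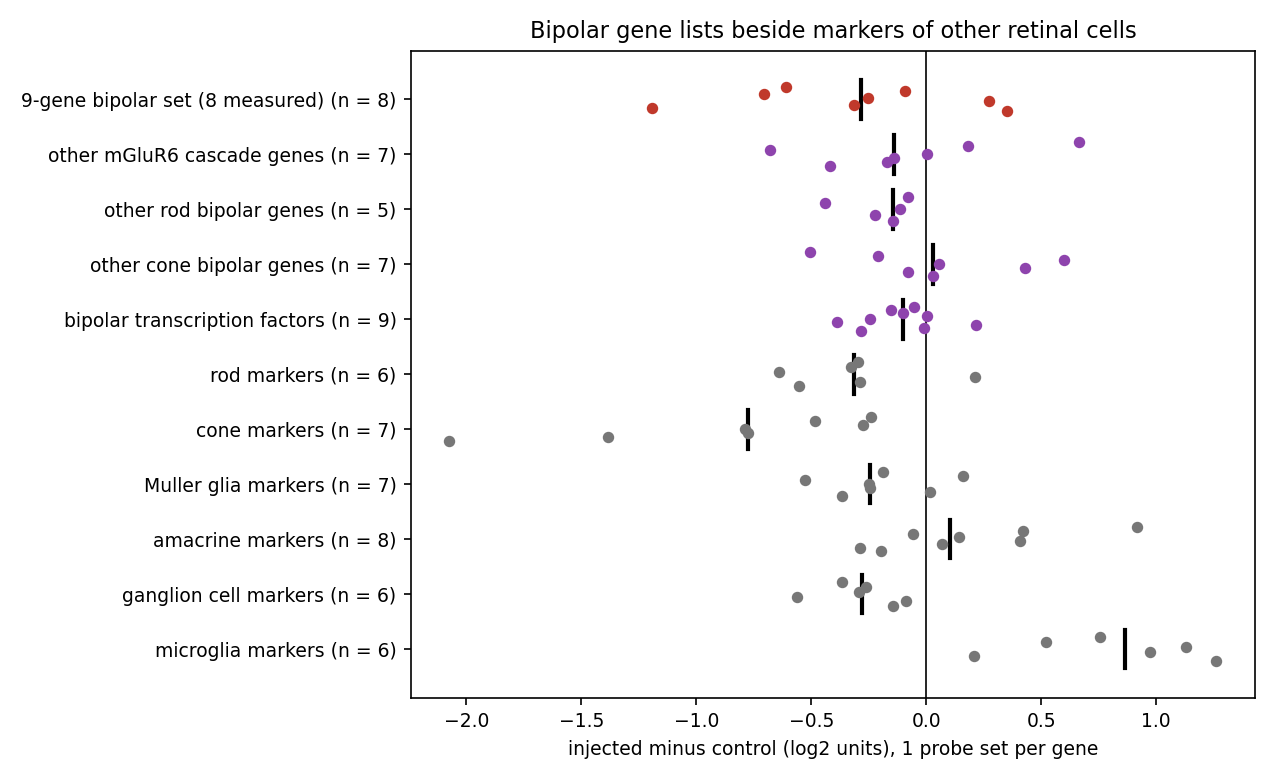
Difference between injected and control means (log2 units) of each tested gene, 1 probe set per gene. The bipolar set is red and markers of other retinal cells are grey. The 4 lists of other bipolar and mGluR6 cascade genes, with Elfn1 of the rod synapse, are purple. Black bars are list medians. The bipolar median of -0.28 lies between the cone median of -0.77 and the microglia median of 0.86.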

How the data were processed

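The authors' deposited table holds 1 linear intensity per probe set and array for 4 injected and 4 control retinas; the trimmed mean (2% of probe sets left out at each end) is 2500 on all 8 arrays, and the software is not given in the sources used here. Because array medians differed by up to 1.55 times, intensities were quantile-normalised in limma 3.58.1 (R 4.3.3) and put on a log2 scale after adding 16, so each log2 value rests on the deposited intensity and understates changes of dim genes. After 64 control probe sets were left out, probe sets at or above the 40th percentile of mean signal were tested, 27022 in all, with lmFit and eBayes and Benjamini-Hochberg adjustment at 0.05. Of 45037 probe sets 34945 had 1 gene symbol, 932 several and 9160 none. Each gene was read at its brightest probe set. Genes named from other lists were those at an unadjusted p under 0.05, or the smallest p up to 3 a list; listed genes not matched to a probe set are not analysed here. Members, lists and motifs were chosen with earlier results of these data known. The fit was tested on simulated data. Alternatives were pseudocounts of 1 and 64, no filter, other scalings, a replicate block, a trended robust prior, array weights (statmod 1.5.0), another probe set and leaving out each array. The joint omission of injected replicate 3 and control replicate 2 was added after the data were seen. The number of arrays limits the precision. Figures used matplotlib 3.10.9 in Python 3.11.15.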

Additional observations from a re-analysis of the deposited data

How the results depend on the processing

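None of the 8 bipolar genes passed over all probe sets in any of the 18 alternative settings, and 6 kept their sign in all of them. Cabp5 turned to 0.015 without injected replicate 2 (lowest -0.17 over single omissions), and Rgs11 to -5.1e-04 without injected replicate 4 (highest 0.42 over single omissions). Over all probe sets, array weights gave 8 calls and single omissions 0 to 34. At an unadjusted p under 0.05, beside 1 bipolar gene as reported, the count was 0 with no filter and 2 with median centring, with a trended robust prior, with the probe set of smallest spread and without injected replicate 3 and control replicate 2 together; single omissions gave 0 to 1, the gene being Nyx without injected replicate 1 and Pcp2 without control replicate 3 or 4, and 0 without injected replicate 2. Of all probe sets, 6.08% reached that p with no filter, 7.58% with median centring, 6.86% with the trended prior, 6.99% for the smallest spread, 6.29% with both arrays left out and 4.9% to 9.01% over single omissions. Genes whose groups did not overlap numbered 1 as reported (5.07% of all probe sets in either direction), 3 with median centring (5.72%), 2 with those arrays left out together (11.5%) and 1 to 3 over single omissions (7.31% to 11.1%). Median centring moved the median of all probe sets to -0.15 and that of the bipolar genes to -0.47. Same-numbered arrays did not deviate together (correlations of -0.03 to 0.08 over 27022 probe sets), and a replicate block left the count at 1 bipolar gene and 0 calls in all. The cause of these changes was not tested. No value of the 36 groups of 4 arrays stood apart by Dixon's test. With 4 arrays a group, small differences could not be resolved, and larger ones in bright probe sets did not pass either. The cone gene Gnat2 was at -0.79 by limma (adjusted p = 0.654), with all injected arrays below all controls. A bipolar gene that did not pass, dim or bright, is thus not shown to be unchanged.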
